A study of Homo sapiens with 6 samples.

Results

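Endoplasmic reticulum (ER) associated degradation is the route by which proteins that fail to fold in the ER are found, drawn back through the ER membrane and destroyed by the proteasome in the cytosol. Its machinery was followed here as 33 genes, chosen by name for their part in recognition, ubiquitin ligation or extraction by the p97 ATPase, out of 55401 gene names in the data. The choice was made with earlier results of these data known. All 33 were found. Of these, 32 were tested, and DERL3, at under 1 TPM (transcript abundance per length, scaled to a fixed total) in each library, was not. TPM is therefore a share of the RNA and not an amount per cell.

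The data are RNA sequencing of 6 libraries of RMS13, a line grown from a human alveolar rhabdomyosarcoma, a tumour of the muscle lineage. One group held RMS13-R cells, a derivative of RMS13 with acquired resistance to MAL3-101, given 10 µM MAL3-101 for 9 h. A second group held parental RMS13 cells with the same drug, dose and time, and the third held parental RMS13 cells given the vehicle DMSO for 9 h. MAL3-101 is a small molecule that inhibits HSP70 chaperones, and each group had 2 libraries, A and B. No resistant cells free of drug were analysed here, so the resistant line and its own response to the drug cannot be told apart. The labels do not say that A and B came from separate cultures, and p-values therefore measure only the spread between these libraries, which may be technical. In bulk RNA, fewer cells of a kind and less RNA per cell cannot be told apart.

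As background, lectins and mannosidases in the ER lumen read the sugar trees of misfolded glycoproteins and hand them to ligase complexes in the membrane, above all the one built on the HRD1 ligase. Ubiquitin is added on the cytosolic side, and p97 with its cofactors pulls the tagged protein out. When unfolded proteins gather in the ER, the unfolded protein response raises the transcription of many of these genes, and the HSP70 of the ER lumen, HSPA5 (BiP), is its best known target.

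Libraries of 1 group correlated at r = 0.990 to 0.996 across genes, and each had 13918 to 14334 genes at 1 TPM or more. Depth cannot be read from TPM, and the counting error of each value is therefore unknown. Each of 12 muscle lineage and rhabdomyosarcoma markers was found, with summed levels of 2677 to 3584 TPM. Single markers differed between groups in both directions. CHRNA1 had means of 51.0 TPM in resistant cells with MAL3-101, 314 TPM in parental cells with MAL3-101 and 311 TPM with DMSO. In the same order DES had 475, 319 and 369 TPM. MYH3 was low, with a mean of 0.855 TPM in parental cells with MAL3-101. Epithelial markers summed to 0.550 to 6.13 TPM with KRT5 at 0, blood markers to 1.47 TPM at most and endothelial markers to 0.330 TPM at most. Fibroblast markers summed to 137 and 137 TPM in resistant cells with MAL3-101, 33.5 and 34.7 TPM in parental cells with MAL3-101 and 37.4 and 44.5 TPM in parental cells with DMSO. Nearly all of the resistant sum was the collagen gene COL3A1, at 134 and 135 TPM, while DCN and LUM stayed at or below 0.71 TPM in each library. COL1A1 ran the other way, at 2.49 and 1.90 TPM in resistant cells with MAL3-101, 16.6 and 18.9 TPM in parental cells with MAL3-101 and 8.17 and 11.1 TPM in parental cells with DMSO; the part of these markers in the results was not tested. Mitochondrial ribosomal RNA took 0.784% and 0.767% of TPM in resistant cells with MAL3-101, 1.92% and 1.97% in parental cells with MAL3-101, and 0.533% and 0.565% in parental cells with DMSO.

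In parental cells MAL3-101 was accompanied by a rise of 17 of the 32 tested members, while 4 fell and 11 did not pass the test. The test was limma on log2(TPM + 1) over 15148 genes, with Benjamini-Hochberg adjustment and a call at an adjusted p under 0.05, and each adjusted p below comes from it. Of all tested genes, 22.6% were called higher and 18.2% lower in the same comparison. The members' median log2 fold change was 0.30, and that of all tested genes was 0.02. The largest changes lay in the HRD1 complex, of which 8 of 10 tested members rose and none fell, with a median of 0.59. With the mitochondrial genes left out of the TPM total, the members' counts were the same, at 17 and 4. Scaling by the upper quartile, which moved the median of all genes by -0.13, gave 13 members higher and 6 lower, and again 8 members of the HRD1 complex higher. Of 15140 genes tested under that scaling, 2365 were higher and 4317 lower.

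The resistant cells with MAL3-101 lay below parental cells with MAL3-101 for 19 of the 32 members and above them for 5, and 8 did not pass. In that comparison 34.8% of all tested genes were called lower and 21.3% higher. The members' median was -0.23, against -0.10 for all tested genes. For the HRD1 complex, 9 of 10 were lower and none higher, with a median of -0.71. Under scaling by median ratio, which moved the median of all genes by 0.10, the counts were 14 lower and 7 higher. Under upper-quartile scaling, which moved it by 0.16, they were 14 and 8, and in both 7 members of the HRD1 complex were lower. Over all tested genes, median-ratio scaling gave 4356 lower and 4241 higher of 15119. Upper-quartile scaling gave 3810 lower and 4766 higher of 15140.

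Set against the DMSO libraries, resistant cells with MAL3-101 had 9 members higher, 5 lower and 18 not past the test, with a median of 0.06 (all tested genes, -0.06). The background there was 20.9% of genes higher and 29.7% lower. Median-ratio scaling, with a shift of 0.08, gave 14 members higher and 5 lower. Of 15119 genes tested under that scaling, 4071 were higher and 3763 lower. The 3 comparisons share libraries pairwise, so they are not independent of each other, and values from them are set side by side without a test between them.

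Summed over its 11 genes, the HRD1 complex stood at 577 and 600.1 TPM in resistant cells with MAL3-101, 1324 and 1310.4 TPM in parental cells with MAL3-101, and 548 and 605 TPM in parental cells with DMSO. The parental libraries with the drug were the high pair, and the other 4 libraries overlapped. HERPUD1 supplied 634 and 644 TPM of the sum in parental cells with MAL3-101. Without it, the sum was 431 and 441 TPM in resistant cells with MAL3-101, 690.1 and 666 TPM in parental cells with MAL3-101 and 466 and 511 TPM in parental cells with DMSO. No groups overlapped, and the resistant pair was the lowest. AUP1 supplied 149 and 153 TPM of that sum in resistant cells with MAL3-101. It supplied 195 and 192 TPM in parental cells with MAL3-101 and 187 and 226 TPM in parental cells with DMSO. Against DMSO, resistant cells with MAL3-101 had 2 of 10 tested members of the complex higher and 2 lower. Of all tested genes, 20.9% were higher and 29.7% lower there. The summed levels of the p97 group lay closer together, though the resistant pair was again the lowest and only the parental groups overlapped. They were 809 and 827 TPM in resistant cells with MAL3-101 and 860.1 and 842 TPM in parental cells with MAL3-101. In parental cells with DMSO they were 837 and 844 TPM. FAF2 supplied 24.6 and 24.9 TPM of these sums in resistant cells with MAL3-101. It supplied 51.4 and 51.6 TPM in parental cells with MAL3-101 and 44.4 and 44.6 TPM in parental cells with DMSO. Of the 7 members of this group, 1 was higher in resistant cells with MAL3-101 than in DMSO, 1 was lower and 5 did not pass. The shares of all tested genes in that comparison are those given above. The 33 genes together made up 4008 and 4068 TPM in resistant cells with MAL3-101, 4928 and 4941 TPM in parental cells with MAL3-101 and 3947 and 4149 TPM in parental cells with DMSO. In the same order, OS9 supplied 2000.5 and 2010.5, 2159 and 2205, and 2003 and 2148 TPM of these totals. HERPUD1 supplied 146 and 159, 634 and 644, and 81.7 and 94.7 TPM.

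**Figure D1:**
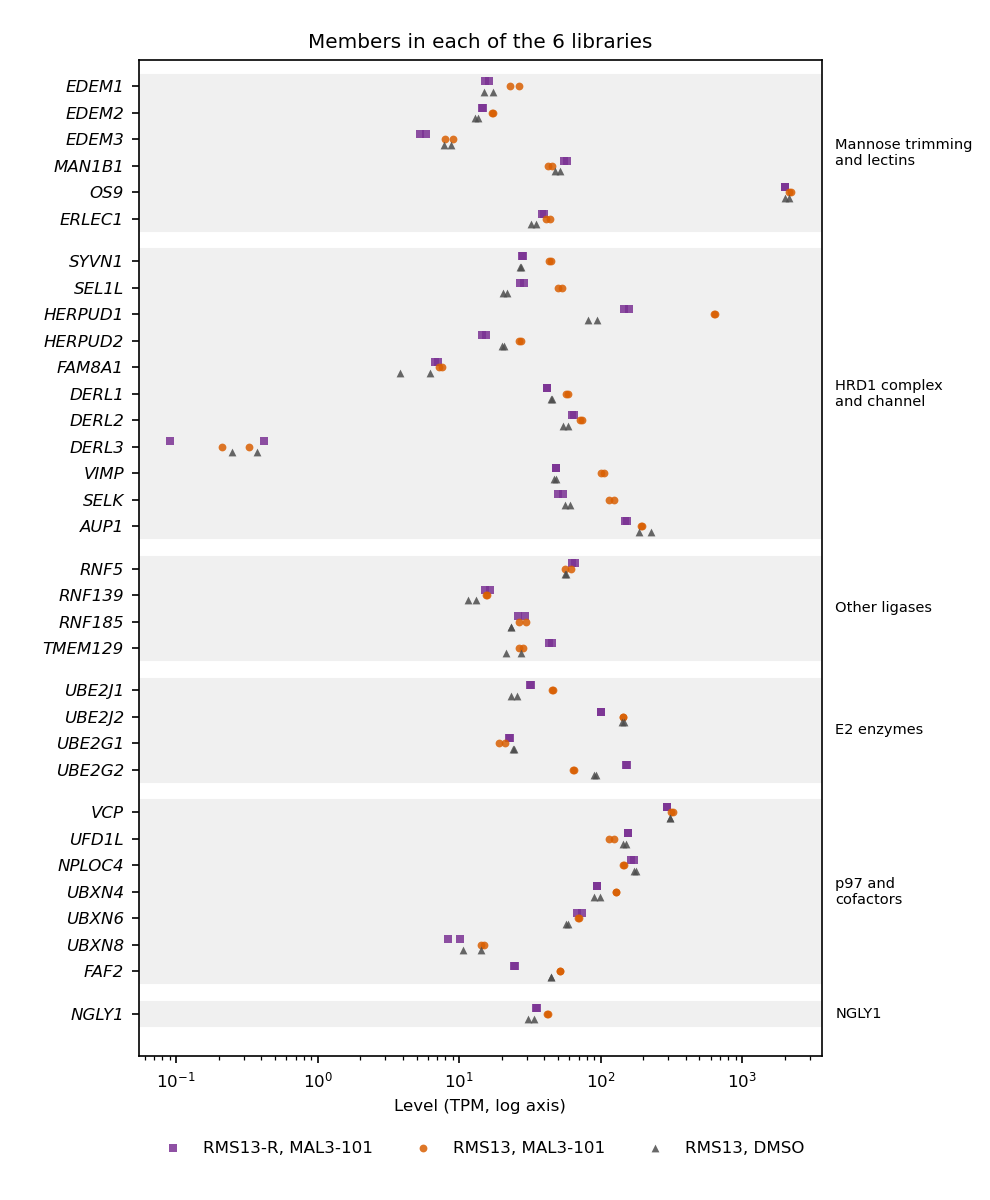
Level of each of the 33 members in each of the 6 libraries, in TPM on a log axis, grouped by role; each point is 1 library, squares RMS13-R with MAL3-101, circles RMS13 with MAL3-101 and triangles RMS13 with DMSO. OS9 lies at the top of the range, near 2000.5 to 2205 TPM, DERL3 at the bottom, and the circles of HERPUD1 stand at 634 and 644 TPM, to the right of its other 4 points.

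**Figure D2:**
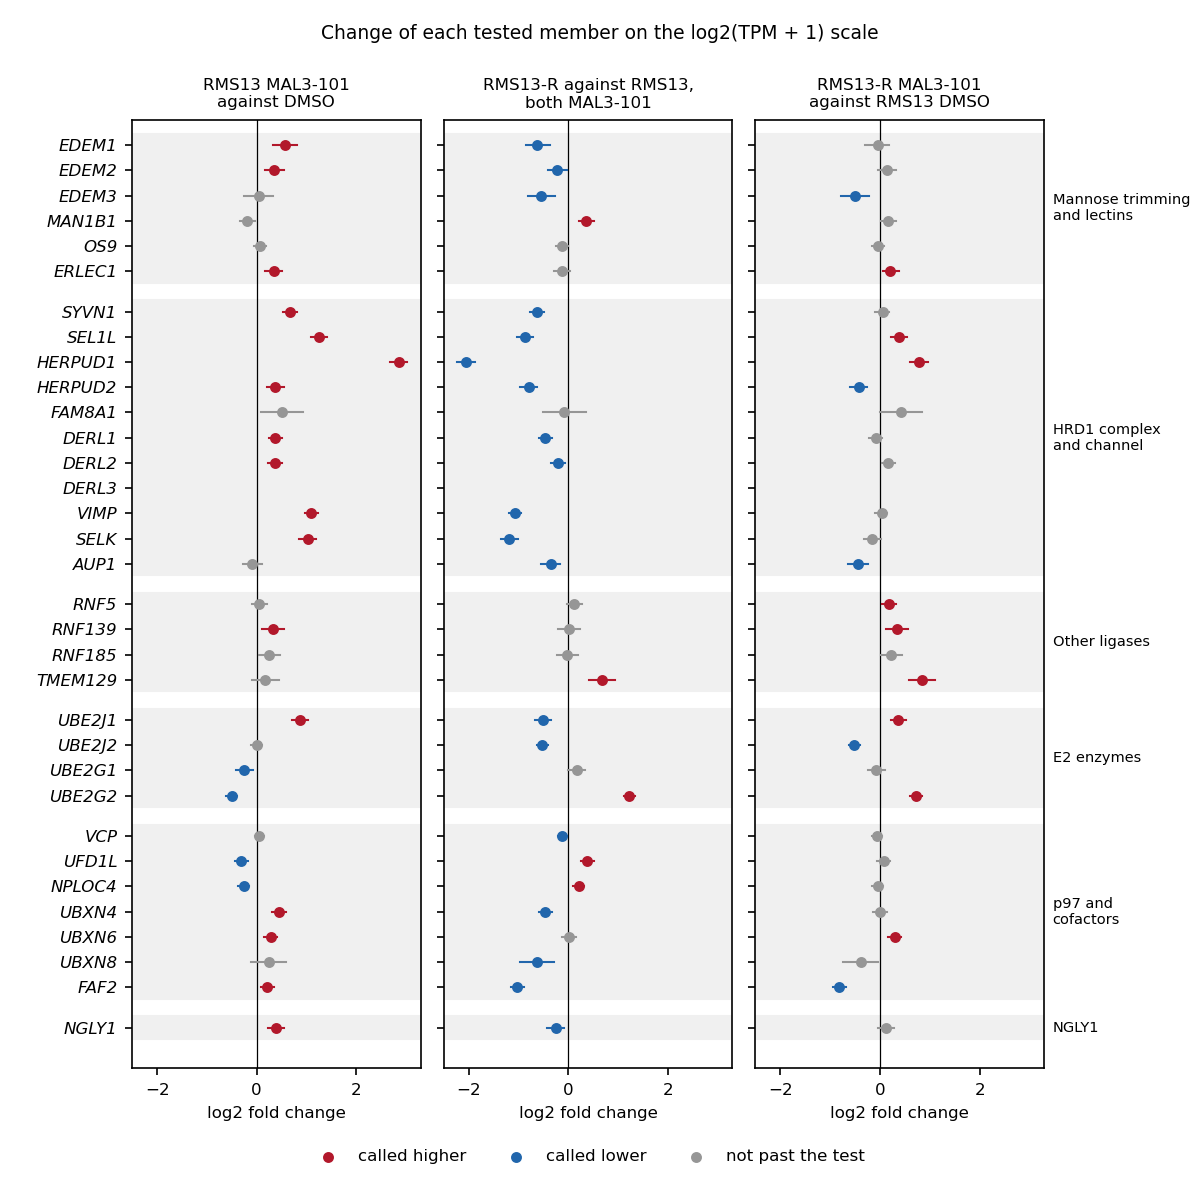
Log2 fold change of each tested member on the log2(TPM + 1) scale with its 95% interval from limma, for RMS13 with MAL3-101 against DMSO, RMS13-R against RMS13 with MAL3-101 in both, and RMS13-R with MAL3-101 against RMS13 with DMSO; red and blue points passed the test at an adjusted p under 0.05. Of the 10 tested members of the HRD1 complex, 8 are red in the left panel and 9 blue in the middle panel; DERL3 was not tested and has no point.

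HERPUD1 (HERP), a short-lived membrane protein with a ubiquitin-like domain that ties HRD1 to the derlins, changed more than any other tested member in the first 2 of these comparisons. Its level was 146 and 159 TPM in resistant cells with MAL3-101, 634 and 644 TPM in parental cells with MAL3-101 and 81.7 and 94.7 TPM in parental cells with DMSO. The groups did not overlap, and the resistant libraries lay between the 2 parental pairs. In parental cells the drug group was higher by 2.85 on the log2 scale (SE 0.08, adjusted p = 1.6e-06), or 7.19-fold on the log2(TPM + 1) scale. In resistant cells with MAL3-101 it was lower than in parental cells with MAL3-101 by -2.06 on the log2 scale (SE 0.08, adjusted p = 3.6e-06) and higher than in DMSO by 0.79 (SE 0.08, adjusted p = 2.0e-04). Among the members, HERPUD1 ranked by mean level 5th in resistant cells with MAL3-101, 2nd in parental cells with MAL3-101 and 9th in parental cells with DMSO.

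HERPUD2, its paralog, moved much less. It had 14.6 and 15.4 TPM in resistant cells with MAL3-101, 26.6 and 27.2 TPM in parental cells with MAL3-101 and 20.9 and 20.2 TPM in parental cells with DMSO. Here the resistant libraries were the lowest pair and no groups overlapped. Parental cells with MAL3-101 were higher than DMSO by 0.37 (SE 0.07, adjusted p = 0.00629), a call lost without library B of parental MAL3-101 (0.36, adjusted p = 0.0582). Resistant cells with MAL3-101 were lower by -0.80 against parental cells with MAL3-101 (SE 0.07, adjusted p = 1.1e-04) and by -0.43 against DMSO (SE 0.07, adjusted p = 0.00234). HERPUD1 made up 90.9% and 91.2% of the TPM of the pair in resistant cells with MAL3-101, 96.0% and 96.0% in parental cells with MAL3-101, and 79.7% and 82.4% in parental cells with DMSO.

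Promoters were read because most members of the HRD1 complex rose together in the parental cells with the drug, and because HERPUD1 is a textbook target of the unfolded protein response. RefSeq promoters on GRCh38.p14, from 250 bases before to 50 bases after the annotated start, were held for 26 of the 33 members. On both strands they were searched for 4 motifs. ERSE, the ER stress response element, is CCAAT, then 9 bases of any kind, then CCACG. ERSE-II is ATTGG, 1 base of any kind, then CCACG. UPRE, the unfolded protein response element, is TGACGTG followed by A or G, and CARE, the C/EBP-ATF response element, is TGATG, 1 base of any kind, then AA. The letters CCACG of ERSE and ERSE-II can overlap a UPRE read on the other strand. ERSE occurred in 0.0806%, ERSE-II in 0.0549%, UPRE in 1.20% and CARE in 3.67% of 27305 promoters of the same length.

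Of the 26 members, HERPUD1 held ERSE-II and CARE, and UBE2J1, UBXN4 and VCP held UPRE; no member held ERSE in this window. HSPA5, XBP1, SDF2L1 and DNAJB9, which are not members, were searched for comparison. HSPA5 and XBP1, which are shown, each held ERSE, SDF2L1 held ERSE-II, and DNAJB9 held none of these motifs in this window. The stretches below are shown because they hold these matches; each is given 5′ to 3′ on the strand of its gene, capitals mark the letters that match a motif, and the pair of numbers after the strand gives the first and last base relative to the annotated start. The HERPUD1 stretch has CARE on the opposite strand first and then ERSE-II, in UBE2J1 the UPRE is on the opposite strand, and in VCP and UBXN4 it is on the strand of the gene.
HERPUD1, chr16:56931946-56932055, plus strand, -196 to -87: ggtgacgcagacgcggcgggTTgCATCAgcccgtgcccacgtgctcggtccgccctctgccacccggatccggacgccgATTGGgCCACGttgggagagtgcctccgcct
UBE2J1, chr6:89352926-89352972, minus strand, -250 to -204: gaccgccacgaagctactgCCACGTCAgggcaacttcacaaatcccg
VCP, chr9:35072787-35072834, minus strand, -209 to -162: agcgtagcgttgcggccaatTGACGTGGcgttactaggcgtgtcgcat
UBXN4, chr2:135741710-135741757, plus strand, -145 to -98: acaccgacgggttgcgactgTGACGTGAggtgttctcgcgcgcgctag
HSPA5, chr9:125241371-125241429, minus strand, -86 to -28: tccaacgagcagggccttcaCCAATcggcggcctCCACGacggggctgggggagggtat
XBP1, chr22:28800583-28800641, minus strand, -72 to -14: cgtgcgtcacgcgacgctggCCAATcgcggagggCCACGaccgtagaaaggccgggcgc

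These matches are descriptions of letters and not binding sites, and no match says only that the letters are not in the window. In parental cells with MAL3-101 against DMSO, 3 of the 4 members with a match rose, HERPUD1 by 2.85, UBE2J1 by 0.88 and UBXN4 by 0.45. VCP, with a UPRE, had a log2 fold change of 0.05 (95% interval -0.04 to 0.15). Of the 22 members searched that held none of the 4 motifs in this window, 12 rose and 3 fell, SEL1L, VIMP, SELK and SYVN1 being among those that rose. Of all tested genes, 22.6% were called higher and 18.2% lower in this comparison. HSPA5 itself had 746 and 753 TPM in resistant cells with MAL3-101, 2908 and 2776 TPM in parental cells with MAL3-101 and 653 and 624 TPM in parental cells with DMSO.

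SEL1L, the adaptor that holds HRD1 in place and receives clients from the lectins, had 28.6 and 27.1 TPM in resistant cells with MAL3-101, 53.3 and 50.4 TPM in parental cells with MAL3-101 and 21.9 and 20.4 TPM in parental cells with DMSO. Parental libraries with the drug were highest, DMSO libraries lowest, and no groups overlapped. The log2 fold change was 1.26 for parental cells with MAL3-101 against DMSO (SE 0.07, adjusted p = 4.5e-05), -0.87 for resistant against parental cells with MAL3-101 (adjusted p = 7.0e-05) and 0.38 for resistant cells with MAL3-101 against DMSO (adjusted p = 0.00356). SYVN1, which encodes the HRD1 ligase itself, had 27.9 and 28.4 TPM in resistant cells with MAL3-101, 43.1 and 44.7 TPM in parental cells with MAL3-101 and 27.6 and 26.8 TPM in parental cells with DMSO. The parental libraries with the drug stood apart, and the other 4 lay within 26.8 to 28.4 TPM. Parental cells with MAL3-101 were higher than DMSO by 0.67 (SE 0.06, adjusted p = 3.4e-04), and resistant cells were lower than they were by -0.62 (SE 0.06, adjusted p = 1.6e-04). Between resistant cells with MAL3-101 and DMSO the difference was 0.05, with a 95% interval of -0.10 to 0.19. SYVN1 shares 7.24% of its exon length with FAU on the same strand and 6.48% with MRPL49 on the opposite strand in GENCODE release 29. FAU had 594 and 601 TPM in resistant cells with MAL3-101, 497 and 480.2 TPM in parental cells with MAL3-101 and 511 and 626 TPM in parental cells with DMSO, and its part in the SYVN1 values was not tested.

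The selenoproteins VIMP (current symbol SELENOS), which docks p97 at the derlins, and SELK (SELENOK), a derlin partner, rose in parental cells with the drug and passed no test between resistant cells with the drug and the DMSO libraries. VIMP had 48.3 and 48.7 TPM in resistant cells with MAL3-101, 106 and 101 TPM in parental cells with MAL3-101 and 46.5 and 48.8 TPM in parental cells with DMSO. SELK had 49.9 and 54.3 TPM in resistant cells with MAL3-101, 125 and 114 TPM in parental cells with MAL3-101 and 55.8 and 60.9 TPM in parental cells with DMSO. For both genes the parental pair with the drug was the highest and overlapped no other library. VIMP rose by 1.10 (SE 0.05, adjusted p = 2.7e-05) and SELK by 1.03 (SE 0.07, adjusted p = 1.2e-04) in parental cells with MAL3-101 against DMSO. In resistant against parental cells with MAL3-101 the changes were -1.08 for VIMP (adjusted p = 1.2e-05) and -1.19 for SELK (adjusted p = 2.5e-05). Against DMSO, resistant cells with MAL3-101 differed by 0.03 for VIMP (95% interval -0.10 to 0.15) and by -0.16 for SELK (-0.33 to 0.01). Without library A of the DMSO group, SELK passed at -0.22 (adjusted p = 0.0325).

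The derlins are membrane proteins that thin the lipid bilayer and form the exit path together with HRD1. DERL1 and DERL2 rose in parental cells with MAL3-101 against DMSO, by 0.37 (adjusted p = 0.00230) and 0.36 (adjusted p = 0.00330), and lay lower in resistant than in parental cells with MAL3-101, by -0.46 (adjusted p = 4.0e-04) and -0.20 (adjusted p = 0.0260). The second DERL2 call was lost without either resistant library or either parental library with the drug (-0.22 to -0.17, adjusted p = 0.0876 to 0.152) and under both rescalings (-0.09 and -0.02). Against DMSO, DERL2 in resistant cells with MAL3-101 passed under the filter at a group mean of 5 TPM (0.17, adjusted p = 0.0456), under median-ratio scaling (0.25, adjusted p = 0.0183), in TPM without mitochondrial genes (0.18, adjusted p = 0.0442) and without DMSO library B (0.23, adjusted p = 0.00645). DERL3, the derlin of secretory cells, was between 0.09 and 0.42 TPM in each library, and 77.0% of its exon length overlaps SMARCB1 on the opposite strand. AUP1, which recruits the conjugating enzyme UBE2G2, had a mean of 151 ± 2.64 TPM in resistant cells with MAL3-101, 194 ± 2.12 TPM in parental cells with MAL3-101 and 207 ± 27.5 TPM in parental cells with DMSO (SD, n = 2 each). It was lower in resistant cells with MAL3-101 than in either parental group, by -0.35 against parental cells with MAL3-101 (adjusted p = 0.00911) and by -0.44 against DMSO (adjusted p = 0.00396). The difference from parental cells with MAL3-101 was lost without resistant library A or either parental library with the drug (-0.36 to -0.34, adjusted p = 0.0506 to 0.0651) and under both rescalings (-0.24 and -0.18). AUP1 fell in parental cells with MAL3-101 against DMSO once DMSO library A was left out (-0.22, adjusted p = 0.00233). FAM8A1, a cofactor of HRD1, passed no comparison. Its DMSO libraries, at 6.18 and 3.85 TPM, were further apart on the log2(TPM + 1) scale than those of any other tested member. Without DMSO library A it passed at 0.79 for parental cells with MAL3-101 against DMSO (adjusted p = 0.00138) and at 0.71 for resistant cells with MAL3-101 against DMSO (adjusted p = 0.00167).

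Upstream of the ligase lie the genes of mannose trimming and lectin recognition. In parental cells with MAL3-101 against DMSO, 3 of 6 rose and none fell (median 0.20), where 22.6% of all tested genes rose and 18.2% fell. In resistant against parental cells with MAL3-101, 3 were lower and 1 higher (median -0.17), where 34.8% of all tested genes were lower and 21.3% higher. EDEM1, which speeds mannose trimming and the release of glycoproteins for degradation, had 15.2 and 16.2 TPM in resistant cells with MAL3-101, 26.3 and 22.9 TPM in parental cells with MAL3-101 and 17.5 and 15.1 TPM in parental cells with DMSO. The parental libraries with the drug were the highest, and the other 2 groups overlapped. EDEM1 rose by 0.57 in parental cells with MAL3-101 against DMSO (SE 0.10, adjusted p = 0.00521), which was lost without library A of parental MAL3-101 (0.47, adjusted p = 0.0529), and was lower by -0.62 in resistant than in parental cells with MAL3-101 (SE 0.10, adjusted p = 0.00200).

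EDEM3, a mannosidase of the same family, had 5.86 and 5.25 TPM in resistant cells with MAL3-101, 9.10 and 7.99 TPM in parental cells with MAL3-101 and 7.81 and 8.81 TPM in parental cells with DMSO. Here the resistant libraries were the low pair and the parental groups overlapped. EDEM3 was lower in resistant cells with MAL3-101 by -0.54 against parental cells with MAL3-101 (SE 0.12, adjusted p = 0.00709) and by -0.51 against DMSO (SE 0.12, adjusted p = 0.0109). The first call was lost without resistant library B or parental MAL3-101 library A (-0.47 to -0.46, adjusted p = 0.0631 to 0.064), and the second without resistant library B (-0.44, adjusted p = 0.0875). EDEM2 rose by 0.35 in parental cells with MAL3-101 against DMSO (adjusted p = 0.0106), and was lower by -0.22 in resistant than in parental cells with MAL3-101 (adjusted p = 0.0497). The rise was lost without either parental library with the drug (0.34 to 0.37, adjusted p = 0.0624 to 0.0832), and the lower level without any one of the 4 libraries with the drug (-0.23 to -0.20, adjusted p = 0.143 to 0.214). Under upper-quartile scaling the 2 differences were 0.22 and -0.05 and passed in neither case.

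OS9, the lectin that binds trimmed glycans and SEL1L, was the most abundant member. It had 2000.5 and 2010.5 TPM in resistant cells with MAL3-101, 2159 and 2205 TPM in parental cells with MAL3-101 and 2003 and 2148 TPM in parental cells with DMSO. It ranked 78th of 55401 gene names by its mean in the DMSO group and made up 98.0% to 98.5% of the TPM that it and ERLEC1, the other lectin, held together. Its fold changes were small, at 0.07, -0.12 and -0.05 in the 3 comparisons, and none passed, though leaving out 1 library of DMSO brought each of them past the test (0.12, -0.12 and -0.10). The 20 tested protein-coding genes nearest to OS9 on chromosome 12 in RefSeq order had a median of 201 TPM in the DMSO group, and CDK4 among them reached 12595 TPM. The same medians around the members whose neighbours are given below ran from 23.2 TPM (EDEM3) to 65.2 TPM (HERPUD1). The neighbours of OS9 were looked up after the level of OS9 was seen, and DNA copy number was not measured here. ERLEC1 rose by 0.34 in parental cells with MAL3-101 against DMSO (adjusted p = 0.00794), lost without library A of parental MAL3-101 (0.29, adjusted p = 0.0743), and was higher by 0.21 in resistant cells with MAL3-101 than in DMSO (adjusted p = 0.0356), lost in 5 of the 6 fits that left out 1 library (0.16 to 0.24, adjusted p = 0.0622 to 0.190). MAN1B1, the mannosidase that makes the first cut, was higher by 0.36 in resistant than in parental cells with MAL3-101 (adjusted p = 0.00275), with 55.5 and 57.5 TPM in resistant cells and 42.4 and 45.2 TPM in parental cells. It passed at -0.24 for parental cells with MAL3-101 against DMSO without DMSO library B (adjusted p = 0.0162), and also under median-ratio scaling (-0.21, adjusted p = 0.0248), upper-quartile scaling (-0.32, adjusted p = 0.00499) and a filter at a group mean of 5 TPM (-0.19, adjusted p = 0.0489). For resistant cells with MAL3-101 against DMSO it passed at 0.23 without DMSO library A (adjusted p = 0.013), and also under median-ratio scaling (0.26, adjusted p = 0.00863), upper-quartile scaling (0.21, adjusted p = 0.0243) and in TPM without mitochondrial genes (0.19, adjusted p = 0.0464).

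Outside the HRD1 complex, 1 of 4 membrane ligases rose in parental cells with MAL3-101 against DMSO, 1 was higher in resistant than in parental cells with MAL3-101, and 3 were higher in resistant cells with MAL3-101 than in DMSO. Of all tested genes 22.6%, 21.3% and 20.9% were called higher in these comparisons, so 1 of 4 is near the background. TMEM129, a ligase that works with DERL1 and UBE2J2, had 43.1 and 45.2 TPM in resistant cells with MAL3-101, 26.3 and 28.5 TPM in parental cells with MAL3-101 and 21.4 and 27.2 TPM in parental cells with DMSO. The resistant pair was high, and the parental groups overlapped. TMEM129 was higher in resistant cells with MAL3-101 by 0.67 against parental cells with MAL3-101 (SE 0.11, adjusted p = 0.00186) and by 0.84 against DMSO (SE 0.11, adjusted p = 7.7e-04). In parental cells with MAL3-101 against DMSO the difference was 0.17 (95% interval -0.09 to 0.44), and it passed without DMSO library B (0.34, adjusted p = 0.00986). RNF139 (TRC8) rose by 0.33 in parental cells with MAL3-101 against DMSO (adjusted p = 0.0302), a call lost in 4 of the 6 fits that left out 1 library, those without a library with the drug (0.32 to 0.33, adjusted p = 0.0666 to 0.140). Its excess of 0.35 in resistant cells with MAL3-101 over DMSO (adjusted p = 0.0193) was lost without either resistant library (0.30 to 0.40, adjusted p = 0.0661 to 0.138). RNF5 was higher by 0.18 in resistant cells with MAL3-101 than in DMSO (adjusted p = 0.0480), a call lost in all 6 fits that left out 1 library (0.14 to 0.21, adjusted p = 0.0542 to 0.250) and with a replicate block (0.18, adjusted p = 0.0637). RNF185, the close relative of RNF5, had log2 fold changes of 0.25, -0.02 and 0.23 in the 3 comparisons and passed in none. The first passed under the filter at a group mean of 5 TPM (0.25, adjusted p = 0.0495), and the third under median-ratio (0.31, adjusted p = 0.0203) and upper-quartile scaling (0.26, adjusted p = 0.0392).

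The 4 ubiquitin-conjugating enzymes moved in different directions. UBE2J1, the tail-anchored partner of HRD1, had 32.2 and 31.8 TPM in resistant cells with MAL3-101, 46.0 and 45.5 TPM in parental cells with MAL3-101 and 25.5 and 23.4 TPM in parental cells with DMSO. The resistant libraries lay between the 2 parental pairs with no overlap. The differences were 0.88 for parental cells with MAL3-101 against DMSO (SE 0.07, adjusted p = 1.5e-04), -0.50 for resistant against parental cells with MAL3-101 (adjusted p = 6.0e-04) and 0.37 for resistant cells with MAL3-101 against DMSO (adjusted p = 0.00280).

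UBE2J2, its paralog, had 100.3 and 101 TPM in resistant cells with MAL3-101, 145 and 144 TPM in parental cells with MAL3-101 and 147 and 142 TPM in parental cells with DMSO. Only the resistant libraries were low, and the parental groups overlapped. Resistant cells with MAL3-101 were lower by -0.52 against parental cells with MAL3-101 (SE 0.05, adjusted p = 9.5e-05) and by -0.52 against DMSO (SE 0.05, adjusted p = 1.2e-04). In parental cells with MAL3-101 against DMSO the difference was 0.00 (95% interval -0.11 to 0.11), and under upper-quartile scaling it was -0.14 and passed (adjusted p = 0.045). UBE2J1 made up 24.3% and 24.0% of the TPM of the pair in resistant cells with MAL3-101, 24.0% and 24.1% in parental cells with MAL3-101 and 14.8% and 14.2% in parental cells with DMSO.

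UBE2G2, the conjugating enzyme that AUP1 recruits, ran against most members. It had 151 and 153 TPM in resistant cells with MAL3-101, 65.4 and 63.6 TPM in parental cells with MAL3-101 and 89.9 and 93.2 TPM in parental cells with DMSO. The resistant pair was highest and the parental pair with the drug lowest, with no overlap. It fell by 0.50 on the log2 scale in parental cells with MAL3-101 against DMSO (SE 0.05, adjusted p = 4.3e-04), and resistant cells with MAL3-101 were higher by 1.22 against parental cells with MAL3-101 (SE 0.05, adjusted p = 4.4e-06) and by 0.73 against DMSO (SE 0.05, adjusted p = 4.1e-05). UBE2G1, its relative, was lower by -0.25 in parental cells with MAL3-101 against DMSO (adjusted p = 0.0320), a call lost without any one of the 4 libraries with the drug (-0.31 to -0.19, adjusted p = 0.0633 to 0.200). It had 23.0 and 22.6 TPM in resistant cells and 19.3 and 21.1 TPM in parental cells, both with MAL3-101, a difference of 0.17 that passed without DMSO library A (adjusted p = 0.0473) and under both rescalings (0.27 and 0.33).

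**Figure D3:**
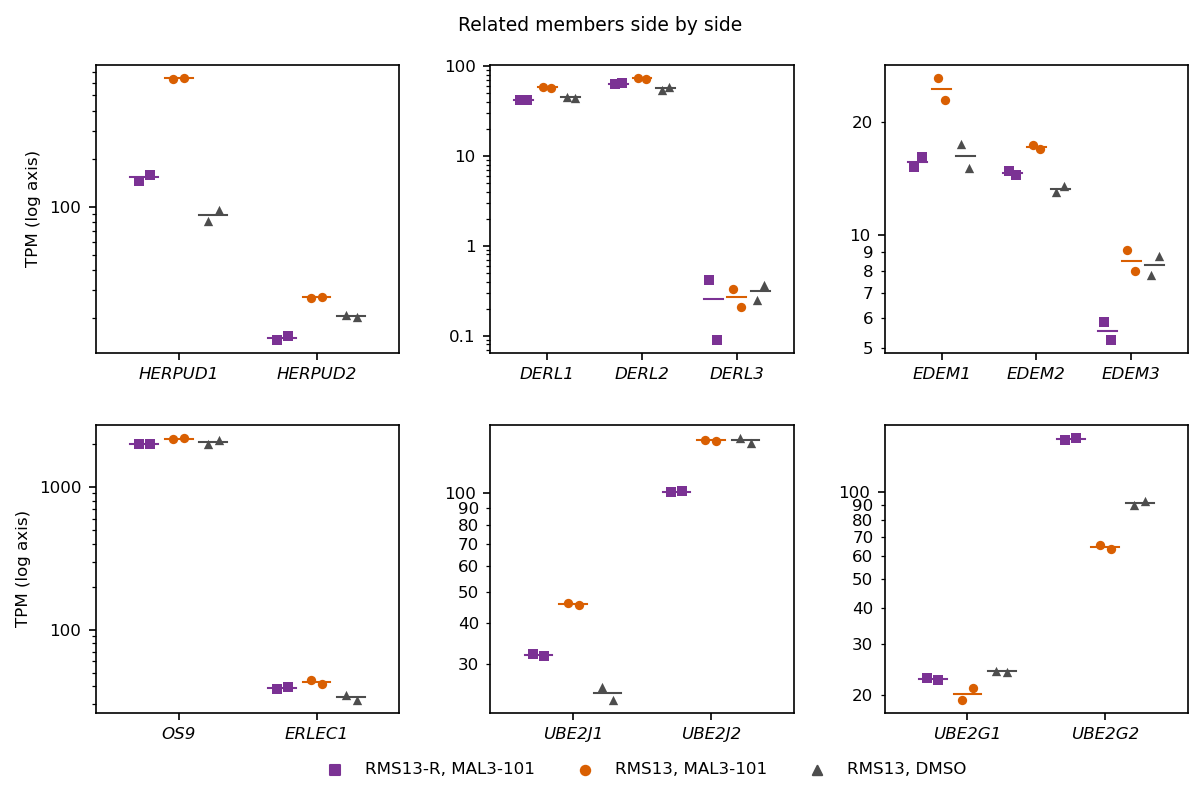
Related members side by side, in TPM on a log axis whose range differs between panels; each point is 1 library and each bar the mean of 2, squares RMS13-R with MAL3-101, circles RMS13 with MAL3-101 and triangles RMS13 with DMSO. HERPUD1 stands far above HERPUD2 in the circles, UBE2J2 is low in the squares at 100.3 and 101 TPM, and UBE2G2 is high in the squares at 151 and 153 TPM while UBE2G1 stays between 19.3 and 24.3 TPM.

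At the extraction step, VCP, which encodes p97, had 295 and 297 TPM in resistant cells with MAL3-101, 326 and 316 TPM in parental cells with MAL3-101 and 309 and 308 TPM in parental cells with DMSO. All 6 libraries lay within 295 to 326 TPM. The difference of -0.12 between resistant and parental cells with MAL3-101 (adjusted p = 0.0460) was lost without any one of the 4 libraries with the drug (-0.14 to -0.09, adjusted p = 0.0996 to 0.249), with a replicate block (-0.12, adjusted p = 0.0639) and in TPM without mitochondrial genes (-0.10, adjusted p = 0.0585), and under upper-quartile scaling it was 0.06 (adjusted p = 0.372). UFD1L and NPLOC4, which form the cofactor pair that binds ubiquitin chains for p97, were lower in parental cells with MAL3-101 than in DMSO, by -0.31 (adjusted p = 0.00443) and -0.26 (adjusted p = 0.00427). Both were higher in resistant than in parental cells with MAL3-101, by 0.38 (adjusted p = 9.5e-04) and 0.21 (adjusted p = 0.00663). The second NPLOC4 call was lost without resistant library B or parental MAL3-101 library A (0.18 to 0.20, adjusted p = 0.0568 to 0.0739). UFD1L had 155 and 156 TPM in resistant cells with MAL3-101, 124 and 115 TPM in parental cells with MAL3-101 and 144 and 152 TPM in parental cells with DMSO.

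The adaptors that anchor p97 at the ER membrane differed from UFD1L and NPLOC4. UBXN4 (erasin) rose by 0.45 in parental cells with MAL3-101 against DMSO (adjusted p = 0.00134) and was lower by -0.46 in resistant than in parental cells with MAL3-101 (adjusted p = 5.9e-04). FAF2 (UBXD8), which sits in the ER membrane and on lipid droplets, had 24.6 and 24.9 TPM in resistant cells with MAL3-101, 51.4 and 51.6 TPM in parental cells with MAL3-101 and 44.4 and 44.6 TPM in parental cells with DMSO. No groups overlapped, and the resistant pair was far the lowest. Resistant cells with MAL3-101 were lower by -1.03 against parental cells with MAL3-101 (SE 0.06, adjusted p = 1.5e-05) and by -0.82 against DMSO (SE 0.06, adjusted p = 4.2e-05). The rise of 0.21 in parental cells with MAL3-101 against DMSO (adjusted p = 0.0227) was lost without any one of the 4 libraries with the drug (0.20 to 0.21, adjusted p = 0.0601 to 0.122) and under upper-quartile scaling (0.07, adjusted p = 0.403).

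UBXN8 (REP8), another membrane adaptor of p97, had 8.35 and 10.1 TPM in resistant cells with MAL3-101, 14.3 and 15.1 TPM in parental cells with MAL3-101 and 10.7 and 14.2 TPM in parental cells with DMSO. The resistant libraries were the low pair, and no groups overlapped, though the upper DMSO library came close to the parental pair with the drug. Resistant cells were lower than parental cells with MAL3-101 by -0.62 (SE 0.15, adjusted p = 0.00944), lost without resistant library A or parental MAL3-101 library B (-0.59 to -0.50, adjusted p = 0.0663 to 0.0786). Against DMSO the difference of -0.39 did not pass (adjusted p = 0.0627), but did with a replicate block (adjusted p = 0.0264) and without DMSO library A (-0.58, adjusted p = 0.00578). Without DMSO library B the rise in parental cells with MAL3-101 passed at 0.43 (adjusted p = 0.0317). UBXN6 (UBXD1), a soluble cofactor, was higher by 0.28 in parental cells with MAL3-101 (adjusted p = 0.00780) and by 0.30 in resistant cells with MAL3-101 (adjusted p = 0.00426), each against DMSO. The first was lost without either parental library with the drug (0.27 to 0.29, adjusted p = 0.054 to 0.064) and under upper-quartile scaling (0.14), and the second without resistant library B (0.24, adjusted p = 0.0519).

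NGLY1, the cytosolic enzyme that strips sugar trees from extracted glycoproteins, had 34.7 and 35.7 TPM in resistant cells with MAL3-101, 41.5 and 42.8 TPM in parental cells with MAL3-101 and 33.9 and 30.6 TPM in parental cells with DMSO. The parental pair with the drug was the highest, and no groups overlapped. It rose by 0.38 in parental cells with MAL3-101 against DMSO (adjusted p = 0.00509), lost without library B of parental MAL3-101 (0.36), and was lower by -0.25 in resistant than in parental cells with MAL3-101 (adjusted p = 0.0169), lost without any one of the 4 libraries with the drug (-0.28 to -0.23, adjusted p = 0.0679 to 0.110) and under both rescalings (-0.15 and -0.09).

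For the 6 members with a called log2 fold change of at least 0.5 in size in resistant cells with MAL3-101 against DMSO, the genes beside them on the chromosome were read after the members' values had been seen. For each member, the 10 tested protein-coding genes on either side in RefSeq order were taken. Of the 20 neighbours of FAF2 on chromosome 5, 16 were lower and none higher, with a median of -0.71 and FAF2 itself at -0.82. Of the 20 neighbours of UBE2J2 on chromosome 1, 14 were lower and 2 higher, with a median of -0.59 and UBE2J2 at -0.52. Around EDEM3, elsewhere on chromosome 1, 8 were lower and none higher, with a median of -0.34. Around UBE2G2 on chromosome 21, 8 were higher and 3 lower, with a median of 0.19 against 0.73 for UBE2G2. Around TMEM129 on chromosome 4, 4 were higher and 9 lower, with a median of -0.11 against 0.84 for TMEM129. Around HERPUD1 on chromosome 16, 7 were higher and 7 lower, with a median of 0.06 against 0.79 for HERPUD1. Over all tested genes 29.7% were lower and 20.9% higher in this comparison. The part of these neighbourhoods in the members' values was not tested.

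**Figure D4:**
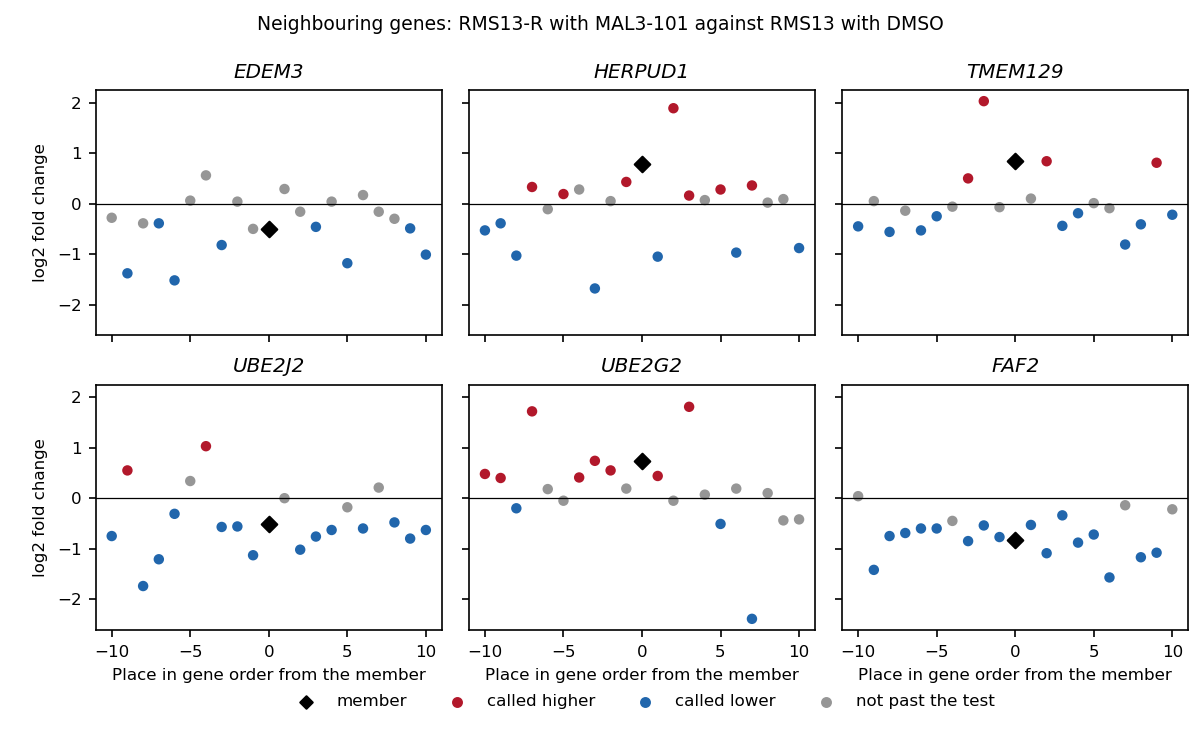
Log2 fold change in RMS13-R with MAL3-101 against RMS13 with DMSO for 6 members, drawn as black diamonds at place 0, and for the 10 tested protein-coding genes on either side of each in RefSeq order; red and blue points passed the test. Nearly all neighbours of FAF2 (16 of 20) and most of UBE2J2 (14 of 20) are blue, while those of HERPUD1 are split, 7 red and 7 blue.

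A wider list of 48 other genes, chosen with earlier results of these data known, was also read. It holds genes outside the degradation pathway itself, such as MANF, an ER stress factor, and CKAP4, a protein of ER sheets. Of the 48 genes, 47 were tested. In parental cells with MAL3-101 against DMSO 19 were higher and 10 lower, or 40.4% and 21.3%, with a median of 0.18. Of all tested genes 22.6% were higher and 18.2% lower there, with a median of 0.02, so the share lower was near the background. The largest rises were those of SDF2L1, a chaperone partner, by 2.38 (adjusted p = 8.1e-07), DNAJB9, an ER J-protein, by 2.34 (adjusted p = 3.2e-06), TXNDC11, a disulfide reductase of this pathway, by 1.61 (adjusted p = 1.2e-04), and MANF, an ER stress factor, by 1.48 (adjusted p = 9.4e-06). ERLIN2 and ERLIN1, which scaffold a further ligase, fell by 0.72 and 0.60 on the log2 scale, UBL4A, of the BAG6 complex, by 0.56, and CKAP4 by 0.46. In resistant against parental cells with MAL3-101 10 were higher and 16 lower, or 21.3% and 34.0%, with a median of -0.02. Both shares were near those of all tested genes, 21.3% and 34.8%, whose median was -0.10. There DNAJB9 was lower by -2.38, MANF by -2.13, SDF2L1 by -1.81 and TXNDC11 by -1.54, and CKAP4 was higher by 1.57, ERLIN2 by 0.70, INSIG1 by 0.53 and WFS1 by 0.44.

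Against DMSO, resistant cells with MAL3-101 had 14 of the 47 higher and 10 lower, or 29.8% and 21.3%, with a median of 0.00, where 20.9% of all tested genes were higher and 29.7% lower with a median of -0.06. SVIP, a small p97 binder known to inhibit this degradation, had 10.4 and 8.90 TPM in resistant cells with MAL3-101, 17.0 and 14.8 TPM in parental cells with MAL3-101 and 24.7 and 19.3 TPM in parental cells with DMSO. The groups did not overlap, with the resistant pair the lowest. SVIP was lower by -1.11 in resistant cells with MAL3-101 than in DMSO (SE 0.14, adjusted p = 5.8e-04), and STUB1, the cytosolic ligase CHIP, by -0.78, MANF by -0.65 and FAF1 by -0.63. CKAP4, a protein of ER sheets, was higher by 1.11, CRELD2 by 0.93, INSIG1 by 0.71 and SDF2L1 by 0.57.

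Genes of the wider ER stress response are given for reference. XBP1, whose spliced form drives many genes of this degradation route, had 100.3 and 99.3 TPM in resistant cells with MAL3-101, 353 and 364 TPM in parental cells with MAL3-101 and 54.5 and 51.5 TPM in parental cells with DMSO; gene-level TPM does not separate its spliced form. HSPA5, XBP1, DNAJB9, DDIT3 and ATF4 were higher in parental cells with MAL3-101 than in DMSO by 2.15, 2.74, 2.34, 4.12 and 1.39. In resistant against parental cells with MAL3-101 they were lower by -1.92, -1.83, -2.38, -2.57 and -0.38. In resistant cells with MAL3-101 against DMSO they differed by 0.23, 0.90, -0.05, 1.56 and 1.01, and DNAJB9 alone of the 5 did not pass (adjusted p = 0.615).

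Counting by strand is not given in the sources used here, so reads of overlapping genes cannot be separated. By exon length, overlaps with genes on the opposite strand included 18.3% for AUP1 with HTRA2, 6.44% for NGLY1 with OXSM, 5.59% for DERL1 with TBC1D31 and 4.71% for DERL2 with MIS12. UBXN6 overlapped AC011498.7 by 15.1% and OS9 overlapped AC025165.2 by 13.5%. Neither partner was found by name in the data, so their levels cannot be read. RNF185 overlapped RNF185-AS1, at 0 in each library, by 10.2%. EDEM1 overlapped AC026202.3, at 0.17 to 1.60 TPM, by 9.66%. MIS12 had 24.5 and 25.6 TPM in resistant cells with MAL3-101, 41.4 and 40.0 TPM in parental cells with MAL3-101 and 25.1 and 22.0 TPM in parental cells with DMSO, so it too was highest in parental cells with MAL3-101, and its part in the DERL2 values was not tested. HTRA2 had 38.0 and 40.0 TPM in resistant cells with MAL3-101 and 55.7 and 51.6 TPM in parental cells with DMSO. Its libraries of parental cells with MAL3-101 lay between these pairs. Like AUP1, HTRA2 was thus lowest in resistant cells with MAL3-101, and its part in the AUP1 values was not tested. The pseudogene copies ERLEC1P1, RNF5P1 and FAF2P1 were listed at 0 in each library, and reads shared with them would be uncertain.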

How the data were processed

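The authors deposited 1 table per library, with TPM per gene name, made from paired-end RNA sequencing. RSEM, DESeq and the build hg19 are named in the submitters' processing notes; the sources used here do not give versions, aligner, annotation or strand setting. No count model was run, as deposited TPM values hold no depth. Libraries were grouped by the labels, with the DMSO group taken from its descriptions, since its titles name the drug as well.

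Genes whose mean reached 1 TPM in some group were tested as log2(TPM + 1), which understates the change of low genes, with limma 3.58.1 in R 4.3.3. Group means were fitted with a mean-variance trend to the 6 libraries together (3 residual and 4.17 prior degrees of freedom; median SE 0.105), and p-values were adjusted within each of 3 comparisons. Members and lists were chosen with earlier results of these data known. Values in every library are given by rule for the 14 members with a called log2 fold change of at least 0.5 in size in some comparison. Values given for other members, and the neighbouring genes, were picked after the values were seen. From the wider list of other genes, up to 4 called rises and 4 called falls per comparison are named.

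Promoters and gene order came by name from RefSeq on GRCh38.p14, with VIMP, SELK and UFD1L matched to SELENOS, SELENOK and UFD1, and overlaps from GENCODE release 29; no hg19 coordinates are mixed with them. Alternatives were pseudocounts of 0.1 and 5, no filter, a filter at 5 TPM, only the 4 libraries compared, a replicate block, median-ratio or upper-quartile scaling, removal of mitochondrial genes before TPM is rescaled, a fold threshold of 1.5 and leaving out each library. The code was tested on simulated data. Tables and figures were made in Python 3.11.15 with numpy 2.4.6 and matplotlib 3.10.9.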

Additional observations from a re-analysis of the deposited data

How the results depend on the processing

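The counts of members were the same or within 1.5 times under both other pseudocounts, both other filters, only the 4 libraries compared, TPM without mitochondrial genes and a replicate block. A fold threshold of 1.5, which tests for a change beyond that size, left 346, 1604 and 1244 genes for parental MAL3-101 against DMSO, resistant against parental MAL3-101 and resistant MAL3-101 against DMSO. It left 4, 1 and 0 members higher and 0, 5 and 1 lower, the 4 higher being HERPUD1, SEL1L, VIMP and SELK. Members higher numbered 8 under upper-quartile scaling for resistant against parental MAL3-101, and 14 under median-ratio scaling for resistant MAL3-101 against DMSO. Some calls near the threshold were lost without the filter or with only the 4 libraries compared: RNF139 and UBE2G1 in both and FAF2 in the second for parental MAL3-101 against DMSO, EDEM2, DERL2 and VCP in the first for resistant against parental MAL3-101, and ERLEC1 and RNF5 in both for resistant MAL3-101 against DMSO. RNF139 (0.19) was also lost under upper-quartile scaling in parental MAL3-101 against DMSO, and EDEM2 (-0.11) under median-ratio scaling in resistant against parental MAL3-101. Rescaling also brought RNF5 (0.23 and 0.29) and UBXN6 (0.19) past the test in resistant against parental MAL3-101, and FAM8A1 (0.50) and NGLY1 (0.21; also 0.20 without DMSO library A) in resistant MAL3-101 against DMSO. With only the 4 libraries compared, OS9 (-0.12) and UBE2G1 (0.17) passed in resistant against parental MAL3-101. Upper-quartile scaling turned the called difference of VCP in resistant against parental MAL3-101 to 0.06, and that of UBE2J2, 0.00 as reported in parental MAL3-101 against DMSO, to -0.14; the cause was not tested. The sign also changed for 16 member differences under rescaling and for 11 when 1 library was left out, all 0.12 or less in size as reported and past the test neither before nor after.

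Over all genes, rescaling moved the split of calls. Parental MAL3-101 against DMSO had 3429 higher and 2752 lower, and 2365 and 4317 by upper quartile. Resistant against parental MAL3-101 had 3228 and 5267, 4241 and 4356 by median ratio, and 4766 and 3810 by upper quartile. Resistant MAL3-101 against DMSO had 3160 and 4502, and 4071 and 3763 by median ratio.

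Leaving out 1 library gave 3158 to 7708 genes, 11 to 20 members higher and 3 to 5 lower for parental MAL3-101 against DMSO, the lowest without a parental MAL3-101 library. Resistant against parental MAL3-101 gave 5971 to 10105 genes, 4 to 6 members higher and 13 to 20 lower. Resistant MAL3-101 against DMSO gave 4955 to 8675 genes, 5 to 11 members higher and 4 to 8 lower. A group left with 1 library is assumed to vary like the others.

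The A minus B differences showed almost no correlation between groups across tested genes (correlations of -0.02, -0.02 and 0.03). That measure cannot tell whether A and B were handled as pairs. With a replicate block, members higher and lower were 17 and 4, 5 and 17, and 8 and 6; EDEM2 and VCP were lost in the second comparison, and RNF5 was lost and UBXN8 gained in the third. With 2 libraries a group and no depth, small changes of low members such as EDEM3, FAM8A1 and UBXN8 are limited by the spread between libraries.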
